A study of Mus musculus with 6 samples.

Results

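MHC class I antigen presentation was followed through 10 genes chosen by name: *H2-K1*, *H2-D1*, *B2m*, *Tap1*, *Tap2*, *Tapbp*, *Psmb8*, *Psmb9*, *Nlrc5* and *Cd74*. Of these, 9 had a probe set annotated to that gene alone, out of 18820 genes measured in this way, and each was read from its probe set with the highest mean. *H2-D1* was annotated only on a probe set shared with *H2-K1* and LOC547349, so that no value is given for it. The samples were EpRas cells, mouse mammary EpH4 epithelial cells of BALB/c background that stably overexpress the Ha-Ras oncogene. Control cells (n = 3) were left untreated and long-term EMT cells (n = 3) received TGF-β1 at 2 ng/ml over 14 days, both in medium with fetal calf serum. The single cell line, its Ras transgene in both groups and the single time point limit what the comparison covers. RNA was hybridized to Affymetrix MoGene-1_1-st-v1 arrays, and the values are log2 values after the Robust Multi-array Average (RMA). The arrays are given as triplicates, and a general statement on independent experiments does not name them, so that the p-values may measure only a technical spread between these samples.

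MHC class I molecules show peptides from inside the cell to cytotoxic T cells, and natural killer cells sense their loss. Proteasomes cut cytosolic proteins, the Tap1/Tap2 transporter carries the peptides into the endoplasmic reticulum, and tapasin (*Tapbp*) helps to load them onto a heavy chain (*H2-K1*, *H2-D1*) paired with β2-microglobulin (*B2m*). Interferon raises most of this set, including *Psmb8* and *Psmb9*, which then replace constitutive proteasome subunits, and *Nlrc5* activates the class I promoters. *Cd74*, the invariant chain, belongs to the class II route of professional antigen-presenting cells.

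Of the 10 genes, 7 lie on chromosome 17 in RefSeq, with *Psmb9*, *Tap1*, *Psmb8* and *Tap2* as direct neighbours in that order. *Tap1* and *Psmb9* are read away from each other, and the stretch between their starts is shown because the genes lie on either side of it. In all sequences (RefSeq, GRCm38.p6, C57BL/6J) capitals mark letters that match, on either strand, GGG and CCC with 5 bases between them (NF-κB type), GAA and GAAA with 2 bases between them (short IRF type), GAAA and GAAA with 2 bases between them (long IRF type), TGACG (X2 type) or CCAAT (Y type). The stretch between *Tap1* and *Psmb9* is chr17:34187331-34187555 on the plus strand.
Tap1 and Psmb9: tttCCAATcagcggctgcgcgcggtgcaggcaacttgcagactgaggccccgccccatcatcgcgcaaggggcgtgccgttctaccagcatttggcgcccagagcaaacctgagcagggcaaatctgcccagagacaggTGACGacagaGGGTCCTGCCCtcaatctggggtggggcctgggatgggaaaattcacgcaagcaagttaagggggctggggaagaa

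The class I heavy chain genes carry near-identical enhancer letters, shown because their probe sets are also hard to tell apart. The stretch of *H2-K1* is chr17:34000429-34000458 on the minus strand. This stretch is in its first promoter window, before the start on which that window is built, and inside the span of the RefSeq gene. That of *H2-D1* is chr17:35262923-35262952 on the plus strand, before the gene. They were identical at 29 of 30 positions. The promoter of *B2m* is shown for chr2:122147548-122147638 on the plus strand, where it held all types of letters searched for except the short IRF type.
H2-K1: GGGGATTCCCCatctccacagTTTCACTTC
H2-D1: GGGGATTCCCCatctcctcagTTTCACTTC
B2m: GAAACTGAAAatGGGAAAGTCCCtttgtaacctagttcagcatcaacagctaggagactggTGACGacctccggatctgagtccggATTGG

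Promoter windows of 300 bases (250 before and 50 after the start) were found for 7 of the 9 genes looked up, without *Tap2* and *Nlrc5*, and *H2-K1* had 2. The NF-κB type was present for *H2-K1*, *H2-D1*, *B2m*, *Tap1* and *Psmb9*, and in 14.0% of 32851 windows of all genes. The short IRF type was present for *H2-K1* and *H2-D1* and in 7.52% of windows, and the long one for *B2m* and in 3.44%. TGACG was present for the same genes as the NF-κB type and in 20.8% of windows, and CCAAT for these and *Tapbp* and in 37.4%. *Tap1* and *Psmb9* overlap in their windows and are not separate matches. These matches are descriptions of letters.

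Among the control arrays, replicate 1 differed most. Across probe sets, which are no independent replicates, r was 0.987 with control replicate 2, 0.984 with control replicate 3 and 0.995 between replicates 2 and 3. It was more than 1 log2 unit above their mean for 777 of 35556 probe sets and more than 1 below it for 577. In the labels, the array name of control replicate 1 ends in another number than those of the other 5 arrays, and what this number stands for is not given. Fold changes of genes are therefore given with and without this array. A background level of 4.48 was set from 1006 probe sets of olfactory receptors, 95% of which had a lower mean. *Krt8* and *Krt18*, keratins of simple epithelium, lay between 12.5 and 12.9 on all arrays. *Cdh1* (E-cadherin) fell with and without control replicate 1 (adjusted p = 0.00195 and 0.000868 from limma). Its log2 values in long-term EMT cells were 4.78, 4.31 and 4.34, the first a little above the background level and the others below it.

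None of the 9 class I presentation genes passed the test between long-term EMT and control cells, which asked for an adjusted p under 0.05 in limma and a fold above 1.5. Over the whole array 1.92% of probe sets passed, 0.993% higher and 0.928% lower. All 9 had a lower mean in long-term EMT cells, with a median log2 fold change of -0.55 against 0.02 over all 18820 genes, of which 45.5% were lower. Without control replicate 1 none of the 9 passed (background 2.68%), the median was -0.11, and 7 of 9 were lower. *Tap1*, *Tap2* and *Psmb9* were the 3 genes with an unadjusted p under 0.05 in limma, between 0.0489 and 0.0497. At this level 1592 of 18820 genes were lower and 1658 higher (6.23% and 7.3% of probe sets). The same 3 genes were under it without control replicate 1 (8.28% of probe sets lower), with unadjusted p between 0.0058 and 0.0316. The methods' t-test gave 0 of 9, adjusted or not. In all 9 genes control replicate 1 was the highest of the 6 arrays, which held for 23.2% of all genes.

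**Figure D1:**
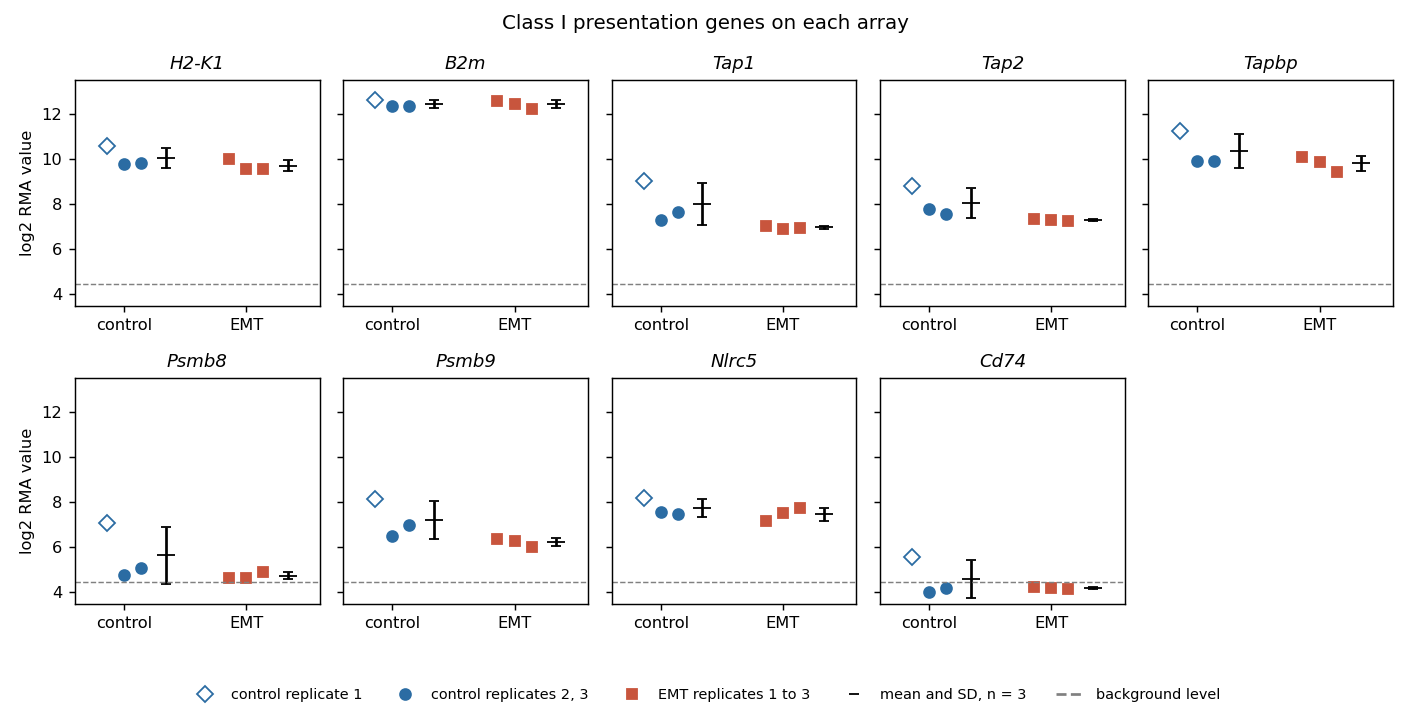
Log2 RMA values of the 9 class I presentation genes on each array, in control cells (blue, control replicate 1 as an open diamond) and long-term EMT cells (red squares), with group means ± SD in black (n = 3) and the background level of 4.48 (dashed line). Control replicate 1 is the highest array in every panel, and only for Tap1, Tap2 and Psmb9 do all EMT arrays lie below all control arrays.

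The chains that reach the cell surface were strongly expressed in both groups. *B2m*, the light chain of all class I molecules, had log2 values of 12.61, 12.33 and 12.34 in control replicates 1, 2 and 3 and 12.58, 12.43 and 12.22 in long-term EMT replicates 1, 2 and 3. The groups overlapped, and the log2 fold change was -0.02 (SE, standard error, 0.13, adjusted p = 0.979 from limma), with a 95% confidence interval from 0.797-fold to 1.23-fold. It was 0.08 on the log2 scale without control replicate 1. *H2-K1*, a classical heavy chain, had log2 values of 10.56, 9.78 and 9.81 in control cells and 9.97, 9.56 and 9.55 in long-term EMT cells. Here EMT replicate 1 lay above control replicates 2 and 3. Its log2 fold change was -0.36 (SE 0.24, adjusted p = 0.627), and -0.10 without control replicate 1. Heavy chain genes are close copies of each other, so that probe sets may also read related genes, and BALB/c mice carry other H2 alleles than the reference strain, an influence that was not tested. The probe set shared by *H2-D1*, *H2-K1* and LOC547349 had log2 values of 11.77, 10.72 and 10.90 in control and 10.85, 10.35 and 10.32 in long-term EMT cells. The groups overlapped there too, with a log2 fold change of -0.62 (SE 0.30, adjusted p = 0.454), and of -0.30 (adjusted p = 0.509) without control replicate 1.

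*Tap1* and *Tap2*, which form the peptide transporter, were lower by value in long-term EMT cells without overlap. *Tap1* had log2 values of 9.03, 7.31 and 7.63 in control and 7.03, 6.91 and 6.94 in long-term EMT cells. The highest of the EMT arrays was 7.03 and the lowest control array 7.31, and the EMT arrays lay close together (SD 0.06, against 0.91 in control cells). The log2 fold change was -1.03 (SE 0.43, adjusted p = 0.369 from limma), a 2.04-fold lower mean, and without control replicate 1 it was -0.51 (SE 0.12, adjusted p = 0.104). *Tap2* had log2 values of 8.79, 7.77 and 7.55 in control and 7.33, 7.27 and 7.24 in long-term EMT cells. Its log2 fold change was -0.76 (SE 0.31, adjusted p = 0.367) and -0.38 (SE 0.10, adjusted p = 0.133) without control replicate 1. Such an order with all EMT arrays below all control arrays was seen in 8.68% of probe sets and in 2161 of 18820 genes.

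*Tapbp*, the gene of tapasin, did not keep the groups apart. Its log2 values were 11.23, 9.92 and 9.88 in control and 10.09, 9.87 and 9.42 in long-term EMT cells, so that EMT replicate 1 lay above control replicates 2 and 3. The log2 fold change was -0.55 (SE 0.39, adjusted p = 0.649 from limma), and -0.11 without control replicate 1.

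Of the inducible proteasome subunits, *Psmb9* had groups that did not overlap and *Psmb8* had groups that did. *Psmb9* had log2 values of 8.14, 6.48 and 6.97 in control and 6.37, 6.26 and 6.02 in long-term EMT cells, without overlap. Its log2 fold change was -0.98 (SE 0.41, adjusted p = 0.369 from limma), a 1.97-fold lower mean, and without control replicate 1 it was -0.51 (SE 0.18, adjusted p = 0.25). *Psmb8* had 7.06 in control replicate 1, against 4.76 and 5.07 in the other control replicates and 4.65, 4.65 and 4.91 in long-term EMT cells. Outside control replicate 1 it thus lay near the background level in both groups, and the groups overlapped. The log2 fold change of -0.89 (SE 0.58, adjusted p = 0.61) became -0.18 without control replicate 1. The interval of *Psmb8*, from -2.29 to 0.51 on the log2 scale, was the widest of the 9 genes. Of the constitutive subunits that these replace, *Psmb5* (replaced by *Psmb8*) had a log2 fold change of 0.06 with an interval from -0.14 to 0.25, and of 0.01 without control replicate 1. *Psmb6* (replaced by *Psmb9*) had one of -0.15 with an interval from -0.33 to 0.04, and of -0.19 without this array, with all EMT arrays below all control arrays. For *Psmb7* and its inducible counterpart *Psmb10* the log2 fold changes were 0.00 (interval from -0.35 to 0.34) and -0.20 (interval from -0.57 to 0.16), and without control replicate 1 they were -0.13 and -0.19.

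**Figure D2:**
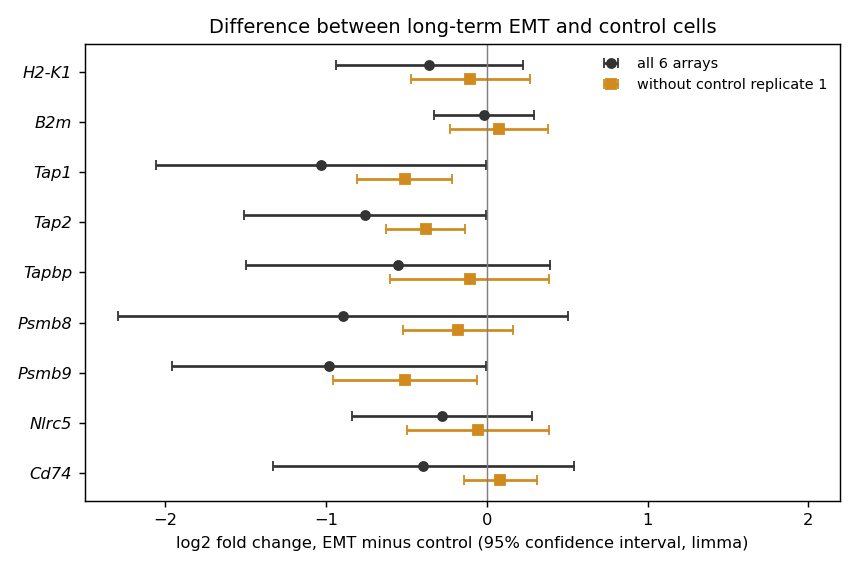
Log2 fold change of the 9 genes, long-term EMT minus control cells, with the 95% confidence interval from limma, over all 6 arrays (black) and without control replicate 1 (orange). Without this array the values of all genes but B2m lie nearer to 0 with narrower intervals, and those of B2m and Cd74 turn their sign. The intervals of Tap1, Tap2 and Psmb9 stay below 0 before adjustment for the number of probe sets.

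*Nlrc5*, the class I transactivator, was covered by 19 probe sets, which did not behave alike. The one with the highest mean had log2 values of 8.17, 7.56 and 7.46 in control and 7.14, 7.49 and 7.73 in long-term EMT cells. The groups overlapped, with a log2 fold change of -0.28 (SE 0.23, adjusted p = 0.713 from limma) and of -0.06 without control replicate 1. The probe set with the third highest mean had 7.65, 6.83 and 7.05 in control and 6.43, 6.23 and 6.07 in long-term EMT cells. Its groups did not overlap, with a log2 fold change of -0.93 (SE 0.22, adjusted p = 0.115), and of -0.70 (adjusted p = 0.066) without control replicate 1. The fourth had a higher mean in long-term EMT cells (log2 fold change 0.13, and 0.26 without control replicate 1). Over all 19 probe sets the log2 fold changes ran from -0.93 to 0.13 with a median of -0.28, and 18 were below 0. EMT arrays lay below all control arrays in 7 and above them in 0, 6 were lower at an unadjusted p under 0.05 in limma, and 0 passed. Of all 35556 probe sets, 3086 (8.68%) had EMT arrays below all control arrays and 3737 had them above. At this unadjusted p 6.23% of all probe sets were lower, and 1.92% passed the test in either direction. Control replicate 1 was the highest array in 16 of the 19 (18.6% of all probe sets), and without it the median was -0.09 (14 of 19 below 0). They share a gene and the same RNA and are not replicates, and 3 had a mean under the background level.

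**Figure D3:**
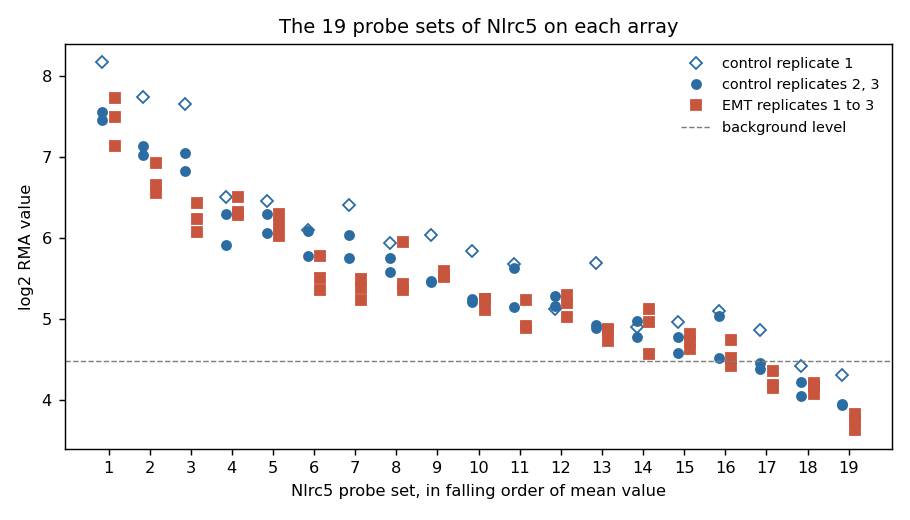
Log2 RMA values of the 19 Nlrc5 probe sets on each array, in falling order of their mean, in control cells (blue, control replicate 1 as an open diamond) and long-term EMT cells (red squares), with the background level (dashed line). The third probe set separates the groups, while the first one, from which the gene was read, does not.

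*Cd74* was not above the background level in long-term EMT cells. Its log2 values were 5.54, 4.01 and 4.20 in control and 4.22, 4.19 and 4.16 in long-term EMT cells, so that control replicate 1 was the 1 array above 4.48. The log2 fold change was -0.39 (SE 0.39, adjusted p = 0.765 from limma), and 0.09 without control replicate 1, a turned sign between values at background. Of the 12 other class II genes measured, 8 had a mean at or below the background level, among them the chains *H2-Aa* and *H2-Ab1*, and 0 passed the test (0 at an unadjusted p under 0.05 in limma). *H2-DMa*, which edits class II peptides, had log2 values of 7.43, 6.67 and 6.65 in control and 6.77, 6.37 and 6.63 in long-term EMT cells (log2 fold change -0.33, SE 0.23, adjusted p = 0.651, and -0.07 without control replicate 1). *Ciita*, the master activator of class II genes, lay between 4.47 and 4.61 on all arrays.

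The excess of control replicate 1 over the mean of control replicates 2 and 3 was 2.15 on the log2 scale for *Psmb8*, 1.56 for *Tap1*, 1.44 for *Cd74*, 1.42 for *Psmb9*, 1.33 for *Tapbp* and 1.13 for *Tap2*. It was smaller for *H2-K1* (0.77), *Nlrc5* (0.66) and *B2m* (0.28). The median of the 9 genes was 1.33, against 0.01 over all genes. This is a difference between control samples of 1 label, given without a test.

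Of 150 other genes of the pathway and its surroundings, in 9 lists, 124 were measured, 98 of them above the background level. Of the 124, 1 rose (0.993% of all probe sets did), 0 fell (0.928%) and 123 did not pass, with a median log2 fold change of -0.07 against 0.02 over all genes. At an unadjusted p under 0.05 in limma, 15 were lower and 7 higher. Of all 18820 genes read in the same way, 1592 were lower and 1658 higher. Of the 13186 above the background level, 1540 were lower and 1509 higher. These gene counts are the background for each list that follows. Over all probe sets, which include those without a symbol, the shares were 6.23% and 7.3%. Without control replicate 1, 1 rose and 3 fell (background 1.33% and 1.36%).

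Among 28 other heavy chain and class I-like genes, 0 passed, with 3 lower and 0 higher at an unadjusted p under 0.05 in limma, and 24 were lower by value (median -0.11, and -0.06 without control replicate 1), against 45.5% of all genes. Of the 28, 10 had a mean at or below the background level. *H2-T23* (Qa-1, a ligand of the inhibitory NKG2A receptor) had log2 values of 9.79, 8.01 and 7.98 in control and 7.82, 7.53 and 7.18 in long-term EMT cells. The groups did not overlap, and the log2 fold change was -1.08 (SE 0.50, adjusted p = 0.434) and -0.49 without control replicate 1. *Fcgrt*, the neonatal Fc receptor, which also pairs with *B2m*, had 8.98, 8.27 and 8.11 in control and 7.28, 7.79 and 7.20 in long-term EMT cells. This gave a log2 fold change of -1.03 (SE 0.27, adjusted p = 0.144), and of -0.77 (adjusted p = 0.123) without control replicate 1. *Cd1d1*, also class I-like, had a higher mean in long-term EMT cells. Its log2 values were 6.65, 5.73 and 5.67 in control and 7.16, 7.04 and 6.18 in long-term EMT cells. The groups overlapped, with a log2 fold change of 0.78 (SE 0.36, adjusted p = 0.43), and of 1.09 (adjusted p = 0.149) without control replicate 1. Of the heavy chain and class I-like genes listed, *H2-D1* included, 8 could not be read alone, 6 of them being annotated only on probe sets with several symbols.

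Of 10 other genes of peptide loading and folding, 0 passed, 2 were lower and 0 higher at an unadjusted p under 0.05 in limma, and the median was -0.06 (-0.07 without control replicate 1). *Tapbpl* (TAPBPR, a peptide editor related to tapasin) had log2 values of 6.53, 6.30 and 6.67 in control and 5.80, 5.89 and 6.10 in long-term EMT cells. The groups did not overlap, and control replicate 1 was not its highest array. The log2 fold change was -0.57 (SE 0.13, adjusted p = 0.102), and -0.56 (adjusted p = 0.146) without control replicate 1. *Bcap31*, an export factor of the endoplasmic reticulum, had 11.08, 10.92 and 10.72 in control and 10.54, 10.55 and 10.61 in long-term EMT cells, also without overlap, with a difference of -0.34 (SE 0.11, adjusted p = 0.229) and of -0.25 without control replicate 1. For the general chaperones *Calr* (calreticulin) and *Canx* (calnexin) the log2 fold changes were both -0.02, with intervals from -0.20 to 0.15, and -0.06 and -0.02 without control replicate 1. The peptide trimming enzyme *Erap1* had one of -0.03 (interval from -0.28 to 0.21), and of -0.04 without this array. Of 24 other proteasome and peptidase genes, 0 passed, 2 were lower and 0 higher at an unadjusted p under 0.05 in limma, and the median was -0.01 (-0.10 without control replicate 1). *Blmh* (bleomycin hydrolase, a cytosolic peptidase) had log2 values of 9.86, 9.70 and 9.68 in control and 9.43, 9.24 and 9.34 in long-term EMT cells. Its groups did not overlap, and the log2 fold change was -0.41 (SE 0.09, adjusted p = 0.0967), and -0.35 (adjusted p = 0.131) without control replicate 1. *Psme2*, a subunit of the interferon-induced PA28 activator, had log2 values of 11.36, 10.95 and 10.99 in control and 10.86, 10.72 and 10.59 in long-term EMT cells. Its groups did not overlap, with a log2 fold change of -0.38 (SE 0.14, adjusted p = 0.301), while that of its partner *Psme1* was -0.36 (SE 0.21, adjusted p = 0.56). These were -0.25 for *Psme2* and -0.12 for *Psme1* without control replicate 1.

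Regulators of MHC transcription moved in different directions by value. Of 14 besides *Nlrc5*, 0 passed, with 2 lower and 4 higher at an unadjusted p under 0.05 in limma and a median of 0.01 (0.04 without control replicate 1). *Irf9*, the DNA-binding part of the type I interferon complex, had log2 values of 10.36, 8.54 and 8.59 in control and 7.41, 7.71 and 7.32 in long-term EMT cells. The groups did not overlap, and its log2 fold change was -1.68 (SE 0.49, adjusted p = 0.191). Without control replicate 1 it fell, by 1.09 on the log2 scale (adjusted p = 0.0181). *Irf8*, best known from myeloid cells, had 6.86, 5.66 and 5.27 in control and 7.70, 7.23 and 6.64 in long-term EMT cells, with a log2 fold change of 1.26 (SE 0.46, adjusted p = 0.297). Its highest control array, replicate 1, lay above EMT replicate 3, and without it the log2 fold change was 1.73 (adjusted p = 0.0543). With array weights *Irf8* rose (adjusted p = 0.029). *Irf1* and *Rfx5*, which both act at class I promoters, had log2 fold changes of -0.15 (interval from -0.59 to 0.29) and 0.03 (interval from -0.18 to 0.24). They were 0.06 and 0.10 without control replicate 1, so that the sign of *Irf1* turned. Of 10 interferon receptor, Jak and Socs genes, 0 passed, and 1 was lower and 1 higher at an unadjusted p under 0.05 in limma. *Jak2* had a log2 fold change of 0.67 (adjusted p = 0.547), and of 1.06 (adjusted p = 0.127) without control replicate 1. *Socs1*, which restrains Jak signalling, had one of -0.36 (adjusted p = 0.237), and of -0.28 without this array.

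Of 11 targets of interferon gamma, 0 passed, with 4 lower and 0 higher at an unadjusted p under 0.05 in limma. In 10 of them the mean was lower, with a median log2 fold change of -1.31. In 6 all EMT arrays lay below all control arrays (2161 of 18820 genes, 8.68% of probe sets). Of the 11, 4 had a mean at or below the background level (*Gbp5*, *Cxcl9*, *Cxcl11* and *Ido1*). Control replicate 1 was the highest array in 10 of 11, with a median excess of 2.06. *Gbp3*, a guanylate-binding GTPase of cell-autonomous defence, had log2 values of 10.17, 6.84 and 7.26 in control and 5.60, 5.38 and 5.27 in long-term EMT cells. The difference on the log2 scale was -2.67 (SE 0.84, adjusted p = 0.225), and without control replicate 1 it fell by 1.63 (SE 0.16, adjusted p = 0.00982). *Iigp1*, an immunity-related GTPase, had 8.23, 4.80 and 5.47 in control and 4.24, 4.15 and 3.98 in long-term EMT cells, where it lay below the background level. The log2 fold change of *Iigp1* was -2.04 (adjusted p = 0.366) and -1.01 (adjusted p = 0.0752) without control replicate 1. *Gbp4* had a log2 fold change of -1.95 (adjusted p = 0.422), fell by 0.84 (adjusted p = 0.0214) without this array, and was named after its values were seen. Without control replicate 1 the median of the 11 genes was -0.59.

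**Figure D4:**
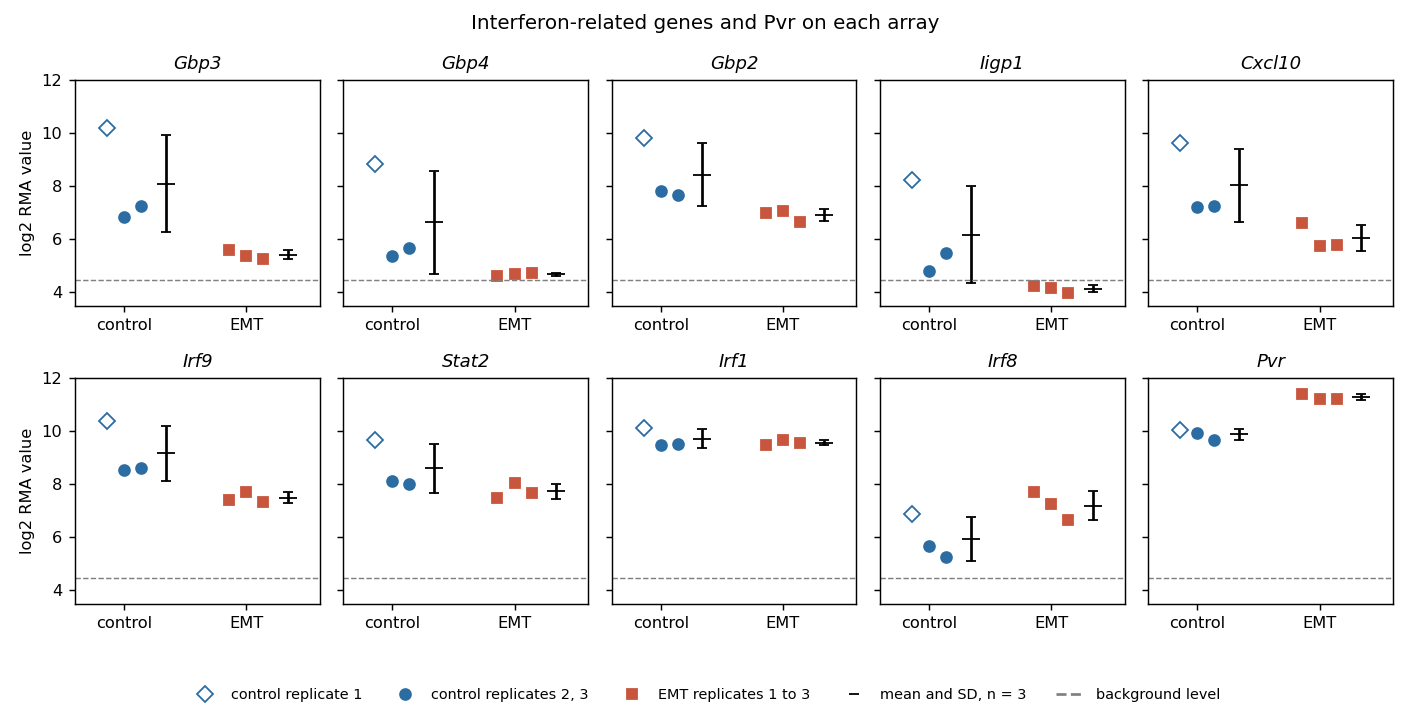
Log2 RMA values of interferon-related genes and of Pvr on each array, in control cells (blue, control replicate 1 as an open diamond) and long-term EMT cells (red squares), with group means ± SD in black (n = 3) and the background level (dashed line). Several of these genes were chosen after their values were seen. Gbp3, Gbp4 and Irf9 lie lower in EMT cells also against control replicates 2 and 3 alone, Irf1 does not, and Pvr is higher.

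The 1 gene that rose was *Pvr*, the poliovirus receptor, which natural killer and T cells recognise through DNAM-1 and TIGIT. It had log2 values of 10.04, 9.92 and 9.64 in control and 11.39, 11.21 and 11.19 in long-term EMT cells. The groups were apart by more than 1 log2 unit, and the log2 fold change was 1.40 (SE 0.13, adjusted p = 0.00596 from limma), or 2.63-fold, and 1.48 (adjusted p = 0.00547) without control replicate 1. It also rose in each of the 6 fits that left out 1 array, but did not pass the methods' t-test after adjustment. The other 12 of the 13 T cell co-signalling ligands did not pass, with 1 lower and 1 higher at an unadjusted p under 0.05 in limma. The lower one was *Lgals9* (galectin-9), with log2 values of 11.71, 9.64 and 10.32 in control and 8.69, 7.64 and 8.03 in long-term EMT cells and a log2 fold change of -2.44 (SE 0.55, adjusted p = 0.0982), and of -1.86 (adjusted p = 0.0585) without control replicate 1. With array weights it fell (adjusted p = 0.0342), as it did with the replicate number as a block (adjusted p = 0.0263). Whether the numbers pair the samples is not given. The higher one was *Cd40*, with 4.73, 4.62 and 4.50 in control and 6.24, 5.65 and 5.04 in long-term EMT cells and a log2 fold change of 1.03 (SE 0.29, adjusted p = 0.176), and of 1.08 (adjusted p = 0.192) without control replicate 1. With array weights it rose (adjusted p = 0.0461). Both were named after their values were seen. *Cd274* (PD-L1) lay between 4.51 and 5.19 on all arrays, close to the background level. Of the NKG2D ligands, which mark stressed cells, 2 of 9 were measured and 0 passed (0 at an unadjusted p under 0.05 in limma). *H60b* had a log2 fold change of -0.57 (interval from -1.61 to 0.47), and of -0.09 without control replicate 1. *Raet1e* had one of 0.08 (interval from -0.36 to 0.52), and of 0.23 without this array.

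**Figure D5:**
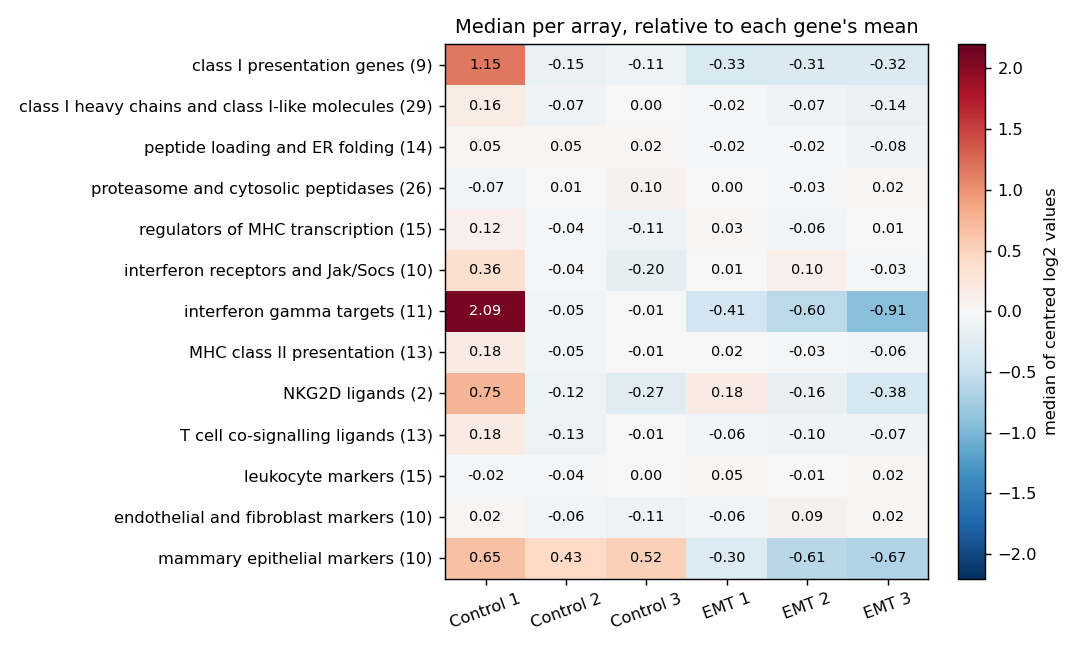
Median log2 value of each gene list on each array, after subtracting each gene's mean over the 6 arrays, with the number of genes measured in parentheses. The class I presentation genes and the targets of interferon gamma are highest in control replicate 1 (1.15 and 2.09) and below 0 in the other 5 arrays, control replicates 2 and 3 included, and the mammary epithelial markers are above 0 in all control arrays.

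Genes whose profile over the 6 arrays lay nearest were found by the root mean square difference of log2 values centred on each gene's mean, among 13185 genes above the background level. Nearest to *Tap1* were *Kng2* (0.08 log2 units), *Psmb9* (0.11) and *Bpifb4* (0.13). *Kng2* lay below the background level in all EMT arrays (4.21, 4.06 and 4.22), so that its likeness rests on values at background. *Psmb9*, on the other side of the printed stretch, was second nearest, while *Psmb8* and *Tap2* ranked 35 and 48. Whether the stretch has a part in this was not tested. Further from *Tap1* lay *Tapbp*, *H2-K1*, *Nlrc5* and *B2m*, which ranked 148, 475, 911 and 2817. Seen from *H2-K1*, the other class I genes above the background level ranked between 1058 (*Tapbp*) and 11655 (*Psmb8*). Nearest to *H2-K1* were *Cnp* (0.06), *Ptpn18* (0.08) and *Ano10* (0.08), and nearest to *Psmb8* were *Parm1* (0.15), *Slc5a9* (0.16) and *Adgrg6* (0.16). All of these were highest in control replicate 1.

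Markers of other cells were read beside these results, since in RNA of a whole culture fewer cells of a type and less RNA per cell cannot be told apart. Of 15 leukocyte markers, 0 passed (1 lower at an unadjusted p under 0.05 in limma), and 10 or 11 lay at or under the background level on each array. Their summed unlogged level was between 556 and 863 in control and between 620 and 865 in long-term EMT cells. *Ptprc* (CD45), which defines leukocytes, lay between 4.69 and 4.83 on all arrays, a little above the background level. *Cd68* lay between 8.22 and 9.24, the highest of the 15 on each array, so that the sum mainly follows this gene. The summed level of 10 endothelial and fibroblast markers was 1015 in control replicate 1, 648 and 535 in control replicates 2 and 3 and between 493 and 603 in long-term EMT cells, and 0 of the 10 passed (1 lower and 1 higher at an unadjusted p under 0.05 in limma). *Dcn* and *Pdgfra* were highest in control replicate 1 and lower by value in long-term EMT cells without overlap. They were the only 2 of the 10 with a lower mean, and the median log2 fold change of the 10 was 0.06. *Col1a1* was higher by value without overlap (log2 fold change 0.62, adjusted p = 0.137 from limma, and 0.73 without control replicate 1). *Pecam1* and *Kdr*, which define endothelial cells, lay below the background level on all arrays. The part of these markers in the class I values was not tested. Of 10 mammary epithelial markers 5 fell, as did 281 of all 18820 genes. The summed level of the 10 was between 19396 and 23544 in control and between 14037 and 14754 in long-term EMT cells.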

How the data were processed

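Affymetrix MoGene-1_1-st-v1 arrays (1 per sample, 150 ng of total RNA) were summarised by the authors with RMA, and the deposited values are on the log2 scale. The submitters' processing notes name Affymetrix Expression Console, and its version is not given in the sources used here. The deposited values (35556 probe sets, 6 arrays) were used without further normalization. The array annotation gives 1 gene symbol for 21218 probe sets, several for 1881 and none for 12457. The groups were fitted with lmFit and eBayes (limma 3.58.1, R 4.3.3) and p-values adjusted over the whole array (Benjamini-Hochberg), tested on simulated data. "Rose" and "fell" refer to a fold above 1.5 with adjusted p under 0.05. The number of arrays limits the precision.

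The genes and lists were chosen with earlier results of these data known. Named are the 9 measured genes, up to 4 genes per list that passed or else the 2 with the largest change, *Psmb5*, *Psmb6*, *Psmb7*, *Ciita*, *Rfx5*, *Irf1* and 3 nearest profiles each of *H2-K1*, *Tap1* and *Psmb8*. *Cd1d1*, *Psmb10*, *Psme1*, *Psme2*, *Blmh*, *Tapbpl*, *Bcap31*, *Calr*, *Canx*, *Erap1* and some markers were added after their values were seen. Alternatives covered normalization, dim probe sets, variance prior, array weights, the methods' t-test, thresholds, a replicate block, the reading of several probe sets and leaving out each array.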

Additional observations from a re-analysis of the deposited data

How the results depend on the processing

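The 9 class I genes had a count of 0 that rose and 0 that fell under all 17 alternatives, with the exception of an unadjusted p, under which 3 fell. Of 153 log2 fold changes, 6 turned their sign, all of *B2m* and *Cd74*, near 0. *B2m* turned to 0.0033 with quantile normalization again and to 0.0454 with array weights, and ran from -0.10 to 0.0783 when 1 array was left out. *Cd74* turned to 0.0637 with array weights and ran from -0.68 to 0.085 when 1 array was left out. Without control replicate 1 the log2 fold changes of all 9 genes moved up, and those of *H2-K1*, *Tap1*, *Tap2*, *Tapbp*, *Psmb8*, *Psmb9* and *Nlrc5* shrank by more than 1.5 times. With array weights and all arrays kept they were also nearer to 0, at -0.51 for *Tap1*, -0.52 for *Tap2*, -0.44 for *Psmb9*, -0.20 for *Psmb8*, -0.22 for *Tapbp*, -0.19 for *H2-K1* and -0.08 for *Nlrc5*. Of the other pathway genes, 3 rose and 1 fell with array weights, 3 rose and 8 fell at an unadjusted p, 0 rose with the methods' t-test (2 rose and 2 fell unadjusted), and 1 rose and between 0 and 3 fell (3 without control replicate 1) when 1 array was left out. With the replicate number as a block 1 rose and 1 fell (*Lgals9*), and 0 class I genes passed. Over the array, 353 probe sets rose and 330 fell. These were 714 and 783 with array weights, 43 and 26 with the methods' t-test (638 and 688 unadjusted), 785 and 915 at an unadjusted p, and 194 rose with a fold threshold of 2. They were between 107 and 472 and between 98 and 482 when 1 array was left out, both lowest without EMT replicate 2 and highest without control replicate 1. The cause was not tested. Whether the numbers pair the samples is not given. Deviations from the group means correlated at 0.19, 0.02 and 0.25 across probe sets for same-numbered arrays. For arrays of different numbers they correlated between -0.27 and 0.14. Small changes of *Psmb8* and *Cd74* are limited by values near background.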
